A study of Mus musculus with 14 samples.

Results

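The genes described here are 10 effector and regulator genes of cytotoxic lymphocytes, measured in bone marrow cells of mice. They are the granzymes Gzma, Gzmb, Gzmk and Gzmm, the pore former Prf1, the granule protein Nkg7, the death ligand Fasl, the cytokine Ifng and the T-box transcription factors Tbx21 and Eomes. They were taken by name, each by its brightest probe among those assigned to that gene alone, from 22180 genes on the array. Each of the 10 had only 1 such probe. The cells carried the surface marker Sca1 and lacked the receptor Kit, and were sorted by flow cytometry from female NCR-NU mice, a nude strain without a thymus. All mice share that strain and sex. Each mouse gave 1 array. Without cancer there were 3 young and 5 old mice, and with a tumour 3 of each age. Cancer-free mice carried Matrigel as the control, and the primary tumours were matched in size between ages. The labels give age only as young or old and do not name the tumour.

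Natural killer cells and cytotoxic T cells kill by releasing granules. Perforin, made by Prf1, opens the target cell membrane, and granzymes, a family of serine proteases, enter and cut proteins inside the target. Fas ligand, made by Fasl, triggers death from the cell surface, and interferon gamma, made by Ifng, activates macrophages and antigen presentation. Tbx21 encodes T-bet and Eomes encodes eomesodermin, which together direct the development of natural killer cells and drive many effector genes. Nude mice have few conventional T cells and keep natural killer cells.

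Upstream sequences of members are shown for the granzymes whose levels differed most between groups (Gzmb and Gzmm), for Gzma, which varied with Gzmb over the arrays, and for Nkg7, whose window held the longer T-box motif. Each is the 250 bases before a RefSeq gene start in GRCm38.p6, read 5′ to 3′ on the gene's strand, with motif matches in capitals.

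Gzma, chr13:113100982-113101231, minus strand: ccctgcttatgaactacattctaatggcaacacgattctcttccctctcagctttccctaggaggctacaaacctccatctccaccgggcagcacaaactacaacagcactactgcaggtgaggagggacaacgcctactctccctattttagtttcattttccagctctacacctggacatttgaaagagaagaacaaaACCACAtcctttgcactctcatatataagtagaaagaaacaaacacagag
Gzmb, chr14:56262335-56262584, minus strand: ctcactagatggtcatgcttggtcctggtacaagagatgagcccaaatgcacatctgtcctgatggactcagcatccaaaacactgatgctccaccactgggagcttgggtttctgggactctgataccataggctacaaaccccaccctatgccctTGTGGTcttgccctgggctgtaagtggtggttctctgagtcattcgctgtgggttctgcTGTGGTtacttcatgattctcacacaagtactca
Gzmm, chr10:79688770-79689019, plus strand: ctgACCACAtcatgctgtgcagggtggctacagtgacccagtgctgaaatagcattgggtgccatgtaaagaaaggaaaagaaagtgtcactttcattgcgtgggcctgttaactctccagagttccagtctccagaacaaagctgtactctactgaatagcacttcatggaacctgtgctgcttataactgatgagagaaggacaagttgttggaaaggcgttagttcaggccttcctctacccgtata
Nkg7, chr7:43436888-43437137, plus strand: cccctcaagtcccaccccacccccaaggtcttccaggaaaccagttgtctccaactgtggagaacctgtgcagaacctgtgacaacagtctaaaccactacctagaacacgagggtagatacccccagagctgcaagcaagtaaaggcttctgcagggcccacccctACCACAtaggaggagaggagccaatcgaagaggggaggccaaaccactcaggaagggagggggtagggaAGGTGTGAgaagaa

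Windows of all 10 genes were matched in RefSeq, 11 in all because Gzmm has a pair of starts, of which the first is shown. The motifs searched on both strands were the T-box sequence AGGTGTGA (reverse complement TCACACCT), its core GGTGTG, which lies inside it, and the Runx sequence TGTGGT. AGGTGTGA was in 1 of the 11 windows, that of Nkg7 at bases 14 to 7 before the start, and in 1.12% of 32851 windows of the same 250 bases. The core GGTGTG was in 4 of the 11 (Fasl, Gzmk, Nkg7 and the second Gzmm window) and in 16.3% of all windows. TGTGGT was in 5 of the 11 (Gzma, Gzmb, Gzmm, Nkg7 and Prf1) and in 14% of all windows. Gzmb held it at 2 places, bases 93 to 88 and 34 to 29 before the start. These matches describe the letters of the windows only.

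Values are log2 expression after RMA, the normalization the authors used, so a difference of 1 is a doubling. Array medians lay between 3.81 and 3.93. Testing was limited to the 13805 genes that exceeded the table median of 3.88 on at least 3 arrays. All 10 members were above it on all 14 arrays, so each was tested and none entered through 1 group alone. The arrays that correlated least with the others were young tumour-bearing replicate 1 (mean r of 0.908 with the other arrays) and old tumour-bearing replicate 3 (0.912). Old tumour-bearing replicate 2 was all but level with replicate 3, at 0.9122 against 0.9121. Ptprc, the pan-leukocyte gene, lay between 10.53 and 11.36 on the arrays. In old tumour-bearing mice it was at 10.53 to 10.61, and no array of another group was below 10.7. Kit, which the sort selected against, lay between 5.25 and 7.03, above the floor, while Ly6a, which encodes Sca1, was not analysed here. Kit was at 6.1 to 7.03 in young tumour-bearing and 5.25 to 6.29 in young cancer-free mice. In old mice it was at 5.69 to 6.16 with and 5.25 to 5.96 without a tumour. Whether the sorted cells differed between groups was not tested. Defining natural killer cell genes were measurable in every group: Ncr1 lay between 7.63 and 9.73 and Klrb1c between 4.87 and 6.20. T cell genes were too: Cd3e lay between 8.69 and 11.39 and Cd8a between 6.37 and 8.83. In sorted bulk RNA, fewer cells of a type and less RNA per cell cannot be told apart.

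**Figure D1:**
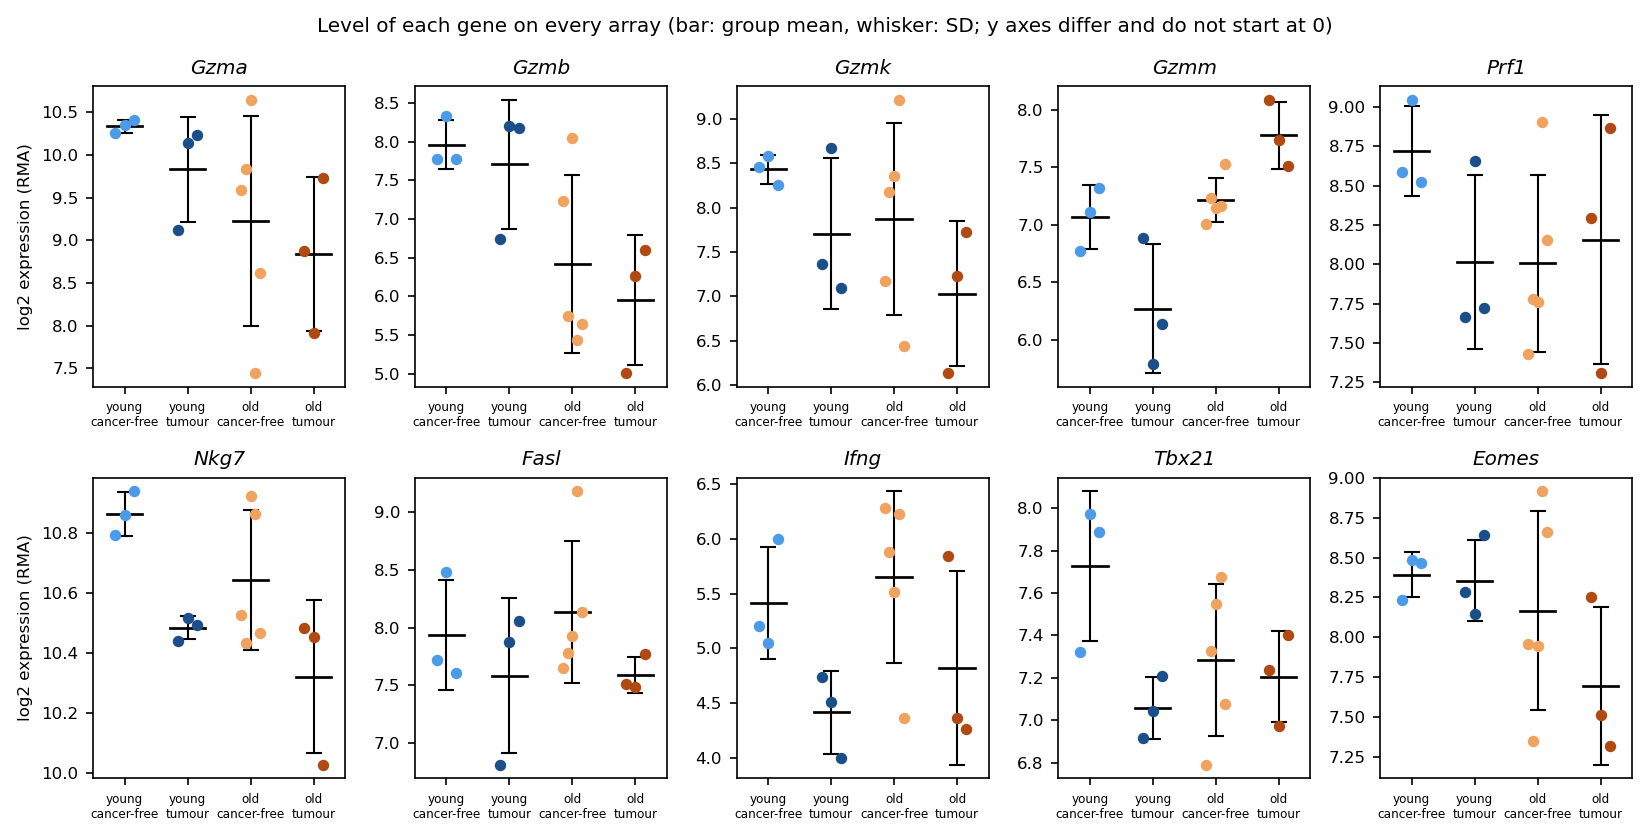
Level of each of the 10 genes on every array, in log2 expression (y axis), by group (x axis); points are arrays, horizontal bars group means and whiskers SD, with a y axis of its own in each panel. Gzmm is lowest in young and highest in old tumour-bearing mice, and Gzmb is lower on most old arrays than on young ones.

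No member passed the test in any comparison. In limma 0 of 10 members had an adjusted p under 0.05 for the tumour effect in young mice, the tumour effect in old mice, age in cancer-free mice, age in tumour-bearing mice or the difference of the tumour effects. At an unadjusted p under 0.05 there were 2, 1, 1, 2 and 1 members in that order, where 5.4%, 9.76%, 7.66%, 10.1% and 4.42% of all genes tested were. The share of all genes called at the adjusted threshold was 0% in each of the 5 comparisons. What follows therefore gives levels and differences with their intervals, and where groups overlap. The comparisons share groups pairwise, so they are not independent of each other. Members and gene lists were chosen with earlier results of these data known, so counts beside the share of all genes are descriptions only.

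The first comparison asks how a tumour in the host goes with these transcripts in young mice. All 10 members had a lower mean in tumour-bearing than in cancer-free young mice, where 52.8% of all tested genes did. The median member difference was -0.59, against -0.02 over all genes tested. The count was 8 of 10 without young tumour-bearing replicate 1, when Fasl (0.034) and Gzmb (0.23) turned, and 9 without replicate 2 of either young group. Groups did not overlap for 4 members (Gzma, Nkg7, Ifng and Tbx21), all lower, where 7.37% of all genes were lower and 5.56% higher without overlap.

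Tbx21 was at 7.32, 7.97 and 7.89 in the young cancer-free mice and at 6.92, 7.05 and 7.21 in the young tumour-bearing mice. Every tumour-bearing array lay below every cancer-free one. The difference was -0.67 ± 0.25 (SE; 95% interval -1.20 to -0.14; unadjusted p = 0.0172, adjusted p = 0.886 in limma). Eomes, the related T-box gene, showed no such gap: it was at 8.23, 8.48 and 8.47 without and 8.28, 8.14 and 8.64 with a tumour, a difference of -0.038 ± 0.35. The interval for Eomes, -0.80 to 0.72, includes the Tbx21 difference, and the gap between these genes was not tested.

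Ifng was at 5.20, 5.05 and 5.996 in cancer-free and 4.74, 4.51 and 4.0004 in tumour-bearing young mice. These groups did not overlap either, although the nearest arrays were 5.05 and 4.74. The mean difference was -1.0002 ± 0.50 (adjusted p = 0.887 in limma). Interferon gamma is induced through the receptors for IL12 and IL18, and 6 of the 8 tested genes of that list, which also holds the interferon gamma receptor, were lower. Il12rb1, a chain of the IL12 receptor, differed by -0.64 ± 0.26 and Stat4, which carries its signal, by -0.69 ± 0.30, and neither passed (adjusted p = 0.886 for both in limma). Of 11 interferon gamma target genes 9 were lower, with a list median of -0.24 and 0 at an unadjusted p under 0.05 in limma. Over all genes tested 52.8% were lower. Whether either list has a part in the Ifng difference was not tested.

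Nkg7, a membrane protein of cytotoxic granules needed for their release, was at 10.79, 10.86 and 10.94 in cancer-free and 10.44, 10.52 and 10.50 in tumour-bearing young mice. The groups were narrow and apart, with SDs of 0.073 and 0.038. The difference was -0.38 ± 0.19 (95% interval -0.79 to 0.026; unadjusted p = 0.0644 in limma). Gzmm, whose product is a protease found mainly in natural killer and other innate lymphocytes, was at 6.77, 7.11 and 7.32 without and 6.89, 5.79 and 6.14 with a tumour. Tumour-bearing replicate 1 lay inside the cancer-free range and the other two below it. The Gzmm difference was -0.80 ± 0.27 (unadjusted p = 0.0101, adjusted p = 0.886 in limma).

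Prf1 (-0.70 ± 0.42), Gzmk (-0.72 ± 0.62), Gzma (-0.51 ± 0.65), Fasl (-0.35 ± 0.40) and Gzmb (-0.26 ± 0.65) had intervals that include 0. For Gzma the groups were apart, at 10.26 to 10.41 and 9.12 to 10.23, but young tumour-bearing replicate 1 alone lay far below the rest. Among the 14 genes of granule machinery 11 were lower, with 2 at an unadjusted p under 0.05 in limma. These were Vamp7, a vesicle fusion protein (-1.04 ± 0.30), and Cst7, an inhibitor of the cathepsins that activate granzymes (-0.81 ± 0.26). Neither passed (adjusted p = 0.886 for both).

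**Figure D2:**
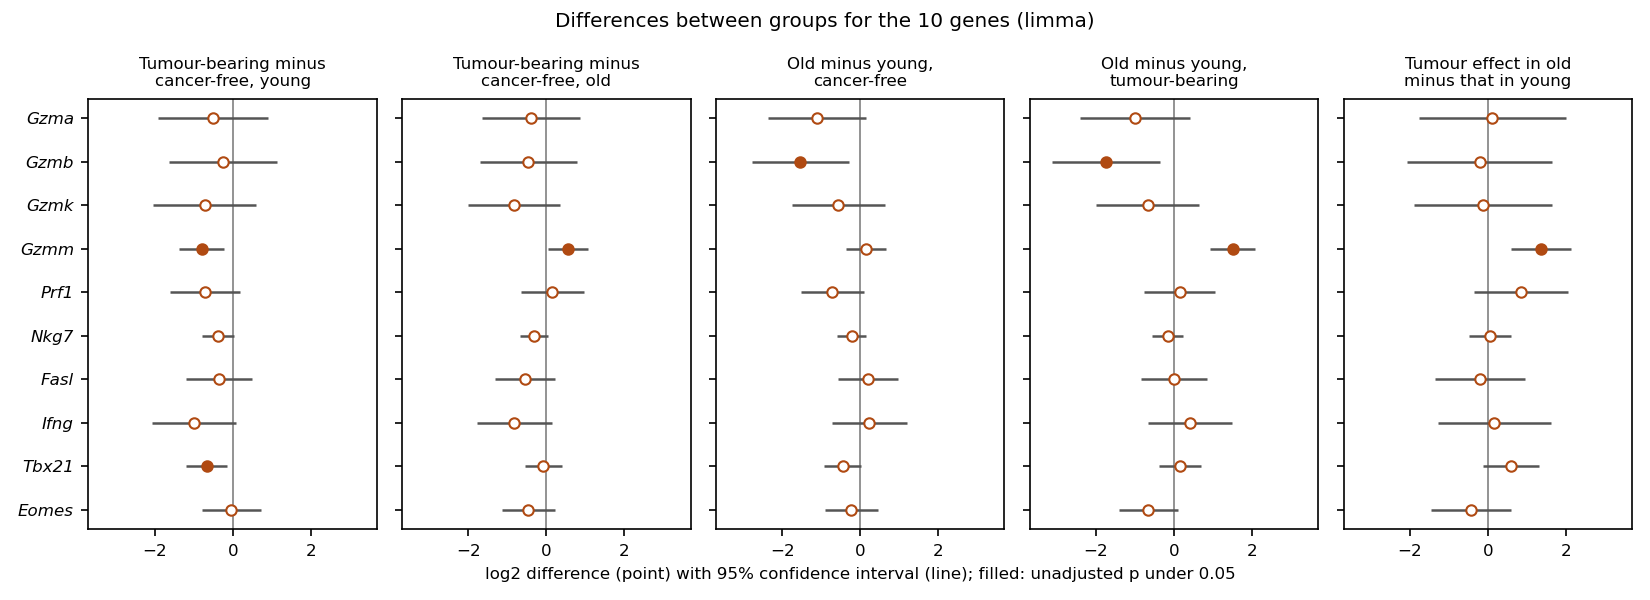
Log2 differences of the 10 genes in 5 comparisons (x axis), with the 95% confidence interval as a line; filled points have an unadjusted p under 0.05 in limma, and none has an adjusted p under 0.05. In the first panel all 10 points lie left of 0, and Gzmm lies on opposite sides of 0 in the first and second panels.

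In old mice the tumour comparison gave a lower mean for 8 of 10 members, against 48.7% of all genes tested. The median member difference was -0.43, against 0.01 over all genes, and -0.16 without old cancer-free replicate 3. No member had groups apart; 3.04% of all genes were lower and 3.11% higher without overlap. The count of lower members was 6 without old tumour-bearing replicate 2 and 9 without old tumour-bearing replicate 3. The 2 members with higher means were Gzmm and Prf1.

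Gzmm was at 7.003, 7.23, 7.15, 7.17 and 7.53 in old cancer-free and 8.09, 7.74 and 7.51 in old tumour-bearing mice. A single cancer-free array, at 7.53, lay above the lowest tumour-bearing one. The difference was 0.56 ± 0.24 (1.48-fold; 95% interval 0.048 to 1.08; unadjusted p = 0.0344, adjusted p = 0.485 in limma). Prf1 was at 7.43, 7.78, 7.76, 8.90 and 8.15 without and 8.30, 7.31 and 8.87 with a tumour, a difference of 0.15 ± 0.38. The sign of the Prf1 difference rested on old tumour-bearing replicate 3 and was -0.20 without it.

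The other effectors had lower means with wide intervals. Ifng differed by -0.83 ± 0.45, its arrays at 6.28, 5.88, 5.51, 6.22 and 4.36 in cancer-free and 5.84, 4.36 and 4.26 in tumour-bearing old mice. One array in each group broke the separation: cancer-free replicate 5 was low and tumour-bearing replicate 1 was high. Gzmk differed by -0.84 ± 0.55, Fasl by -0.55 ± 0.36, Eomes by -0.47 ± 0.32, Gzmb by -0.47 ± 0.58, Gzma by -0.39 ± 0.59 and Nkg7 by -0.32 ± 0.17. Tbx21 was nearly level, at -0.079 ± 0.22 with an interval of -0.56 to 0.40.

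Natural killer cell markers moved with these means in both ages, and their part in the result was not tested. In young mice 16 of 17 markers were lower with a tumour (1 at an unadjusted p under 0.05 in limma) and their mean level lay between 7.34 and 7.93, against 7.99 to 8.40 without a tumour. In old mice 16 of 17 were lower (9 at an unadjusted p under 0.05), between 7.32 and 7.65 against 7.92 to 8.40. None passed after adjustment, and tumour-bearing and cancer-free mice of either age did not overlap on that mean. T cell markers were lower with a tumour in 10 of 12 cases in young mice (3 at an unadjusted p under 0.05 in limma, median -0.88, mean level 6.44 to 7.36 against 6.96 to 7.90) and in 7 of 12 in old mice (7.48 to 7.89 against 7.02 to 8.16), and their part was not tested either. Ncr1, an activating receptor of natural killer cells, differed by -0.75 ± 0.40 in young and -0.90 ± 0.36 in old mice. Klrb1c, the gene of NK1.1, differed by 0.12 ± 0.31 and -0.26 ± 0.28. In old mice Itga2, an integrin of mature natural killer cells, differed by -1.59 ± 0.36, and Cd244a, a receptor of these cells, by -1.14 ± 0.29.

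Transcription factors that act beside Tbx21 and Eomes in lymphocytes were lower in old tumour-bearing mice in 10 of 14 cases, 5 of them at an unadjusted p under 0.05 in limma. Runx3, which controls cytotoxic genes, was at 7.06 to 7.20 in old cancer-free and 6.41 to 6.53 in old tumour-bearing mice, at -0.66 ± 0.14 (adjusted p = 0.197 in limma). Tox, needed for the development of innate lymphocytes, differed by -1.01 ± 0.21, Ets1 by -0.64 ± 0.17 and Id2, which natural killer cells require, by -0.91 ± 0.26. In young mice the same list had 11 of 14 lower and 0 at that threshold. In limma Runx3 differed by -0.64 ± 0.21 and Tox by -0.96 ± 0.32 between the tumour effects in old and young mice, and neither passed (adjusted p = 0.976 for both).

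The third comparison is that of old with young cancer-free mice. Here 7 of 10 members had a lower mean in old mice, against 55.5% of all genes tested, and the median member difference was -0.34, against -0.04. No member had groups apart, where 4.40% of all genes were lower and 2.90% higher without overlap.

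Gzmb was at 7.78, 8.33 and 7.78 in young and 7.24, 5.75, 8.04, 5.44 and 5.64 in old cancer-free mice. Old replicates 2, 4 and 5 were the low arrays, while replicate 3 lay inside the young range. The difference was -1.54 ± 0.58 (2.91-fold lower; 95% interval -2.78 to -0.30; unadjusted p = 0.0187, adjusted p = 0.592 in limma). Gzma was at 10.26, 10.35 and 10.41 in young and 9.59, 9.84, 10.65, 7.44 and 8.61 in old mice, a difference of -1.11 ± 0.59. Without old replicate 4 it was -0.67 ± 0.47. Replicate 3 was the highest array and replicate 4 the lowest among these old mice.

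Prf1 differed by -0.71 ± 0.38, Gzmk by -0.56 ± 0.55, Tbx21 by -0.44 ± 0.22, Eomes by -0.23 ± 0.32 and Nkg7 by -0.22 ± 0.17. Means were higher in old mice for Ifng (0.24 ± 0.45), Fasl (0.20 ± 0.36) and Gzmm (0.15 ± 0.24). Serpinb9, the inhibitor that protects killer cells from their own granzyme B, was at 6.99 to 7.56 in young and 5.70 to 6.71 in old cancer-free mice. Its difference was -1.07 ± 0.34 (adjusted p = 0.556 in limma).

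Spread between mice differed by group. The SD of a member was between 0.073 and 0.51 in young cancer-free mice (median 0.28) and between 0.19 and 1.23 in old cancer-free mice (median 0.62). For 9 of 10 members it was larger in old mice, as for 67.8% of all genes tested, whose median SD was 0.23 and 0.32. Gzma had an SD of 0.078 in young and 1.23 in old cancer-free mice, while Tbx21 had 0.35 and 0.36. Gzmm was the exception, at 0.28 and 0.19. This is a description over 3 and 5 arrays with no test.

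Among tumour-bearing mice, old and young hosts differed in opposite directions for a pair of granzymes. Of the 10 members 5 were lower and 5 higher in old mice, against 49.5% lower over all genes, with a median of -0.08 against 0.0044. That median ran from -0.28 without young tumour-bearing replicate 1 to -0.0025 without replicate 2 of the same group. Groups were apart for Gzmm, higher in old mice, and for Gzmb, lower. Over all genes 5.94% were higher and 7.10% lower without overlap.

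Gzmm was at 8.09, 7.74 and 7.51 in old and 6.89, 5.79 and 6.14 in young tumour-bearing mice. Every old array lay above every young one. The difference was 1.51 ± 0.27 (2.85-fold; 95% interval 0.93 to 2.08; unadjusted p = 6.49e-05, adjusted p = 0.0778 in limma), the tenth smallest p of all genes tested. Leaving out single arrays gave 1.27 to 1.82, with adjusted p between 0.0656 and 0.227 in limma. Without both of the least correlated arrays, 1 in each of these groups, it was 1.95 ± 0.26 and passed (adjusted p = 0.0452 in limma). For Gzmm these were the highest young array (6.89) and the lowest old one (7.51), so leaving them out widens the gap by itself. The share of all genes called in that setting was not computed.

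Gzmb was at 5.01, 6.26 and 6.60 in old and 6.74, 8.20 and 8.17 in young tumour-bearing mice. Old replicate 3 and young replicate 1 were nearly level, at 6.60 and 6.74. The difference was -1.75 ± 0.65 (3.36-fold lower; 95% interval -3.14 to -0.36; unadjusted p = 0.0173, adjusted p = 0.389 in limma). Gzma differed by -0.99 ± 0.65, Gzmk by -0.68 ± 0.62, Eomes by -0.66 ± 0.35 and Nkg7 by -0.16 ± 0.19. Ifng (0.41 ± 0.50), Tbx21 (0.15 ± 0.25), Prf1 (0.14 ± 0.42) and Fasl (0.0034 ± 0.40) had higher or level means. Without those same arrays 8 of 10 members were lower, when Prf1, Fasl and Tbx21 turned to -0.39, -0.47 and -0.019.

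Among 14 genes of granule machinery 8 had lower and 6 higher means in old tumour-bearing mice, 1 and 2 of them at an unadjusted p under 0.05 in limma. Ctsc, the cathepsin that activates granzymes, was at 5.72 to 7.22 in old and 7.46 to 8.19 in young tumour-bearing mice, at -1.12 ± 0.35 (adjusted p = 0.315 in limma). Cst7, which inhibits it, was at 8.26 to 8.52 in old and 7.55 to 7.84 in young tumour-bearing mice, at 0.74 ± 0.26 (adjusted p = 0.362 in limma). Vamp7 differed by 0.67 ± 0.30, and none of the list passed.

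T cell markers differed in the same direction as Gzmm, and plasmacytoid dendritic cell markers in the same direction as Gzmb; their part in either result was not tested. Natural killer cell markers were lower in 11 of 17 cases in old against young tumour-bearing mice (2 at an unadjusted p under 0.05 in limma, median -0.28), Itga2 by -1.64 ± 0.40, the opposite direction to Gzmm. In cancer-free mice they split into 9 higher and 8 lower, with a median of 0.04. In old against young tumour-bearing mice 9 of 12 T cell markers were higher, 6 at an unadjusted p under 0.05 in limma, and their mean level was 7.48 to 7.89 against 6.44 to 7.36. Cd8a differed by 1.99 ± 0.59 and Cd3e by 1.17 ± 0.37. Of the plasmacytoid dendritic cell genes all 11 tested had lower means at old age in both age comparisons, 5 of them at an unadjusted p under 0.05 in each. Their mean was 5.91 to 6.56 in old and 7.23 to 7.93 in young tumour-bearing mice, and 5.64 to 7.21 against 6.94 to 8.04 in cancer-free mice. Siglech, a receptor of these cells, differed by -1.90 ± 0.50 and -1.03 ± 0.45 in that order. Myeloid markers were lower in 10 of 12 and 9 of 12 cases, Mpo by -2.05 ± 0.58 in tumour-bearing mice. B lineage markers were lower in 5 of 8 and 4 of 8 cases. Group 2 innate lymphoid cell markers, 3 of which were tested, were lower in 3 and 2 cases. None of the markers passed after adjustment.

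**Figure D3:**
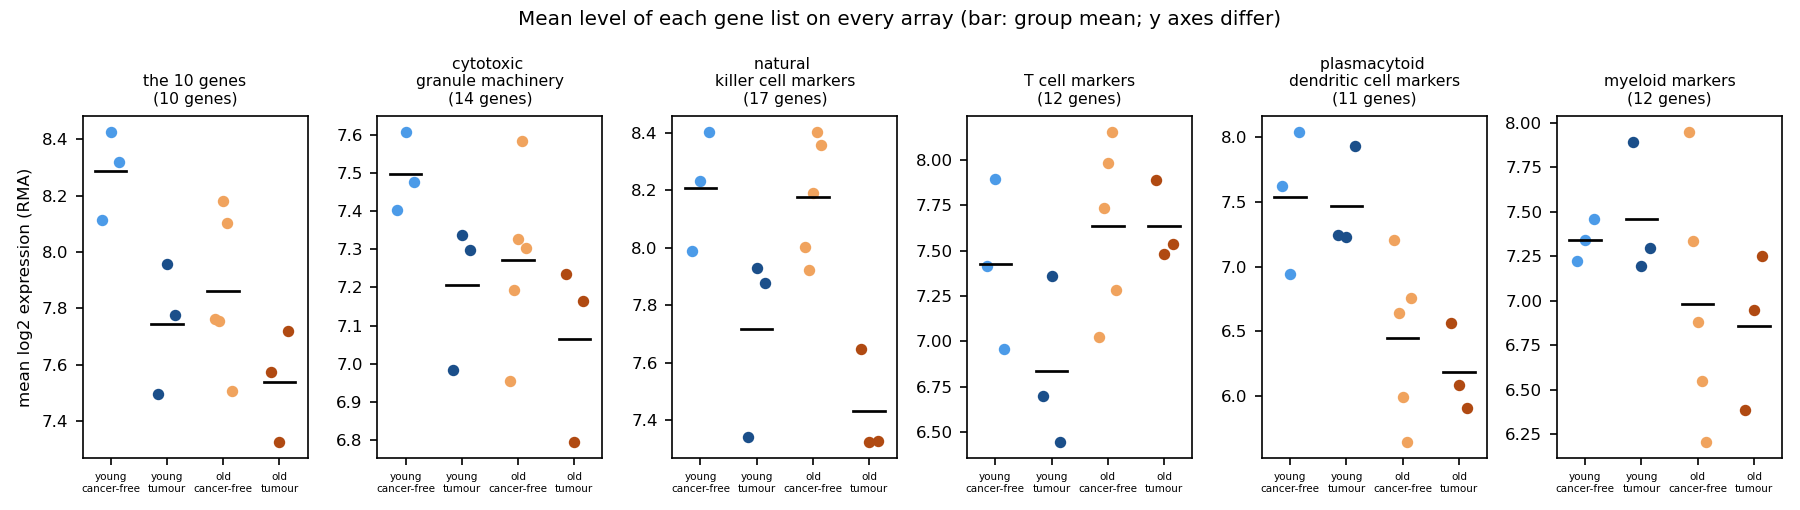
Mean log2 expression (y axis) of the 10 genes and of 5 gene lists on every array (points), by group (x axis), with bars at group means. Natural killer cell markers are lower in tumour-bearing groups, and T cell markers are lowest in young tumour-bearing mice, whose arrays lie at 6.44 to 7.36.

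The difference between the tumour effects in old and in young mice was largest for Gzmm among the members, at 1.36 ± 0.36 (95% interval 0.59 to 2.13; unadjusted p = 0.00206, adjusted p = 0.976 in limma). Its effect was -0.80 in young and 0.56 in old mice. Prf1 was at 0.86 ± 0.56 and Tbx21 at 0.59 ± 0.33, while the other seven lay between -0.43 (Eomes) and 0.17 (Ifng). In all 4 of 10 members had a difference below 0, where 47.6% of genes did. Among T cell markers 10 of 12 were above 0, Cd8a by 1.90 ± 0.79. Leaving out single arrays moved the count of members below 0 from 4 to between 2 (without replicate 3 of old cancer-free or replicate 2 of young tumour-bearing mice) and 6 (without old cancer-free replicate 5).

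Across groups the order of mean levels differed by gene. Gzmb was highest in young mice, at 7.96 without and 7.70 with a tumour, then in old mice, at 6.42 without and 5.96 with one. Gzma had the same order, at 10.34, 9.83, 9.23 and 8.84, and so had Eomes, at 8.39, 8.36, 8.17 and 7.69. Neighbours in that order differed by less than 1 SD of the more variable group for Gzma and Eomes, and for Gzmb only the step between young tumour-bearing and old cancer-free mice was larger. Gzmm had another order, from 7.78 in old tumour-bearing through 7.22 in old and 7.07 in young cancer-free to 6.27 in young tumour-bearing mice. Tbx21 was highest in young cancer-free mice (7.73), and the other three groups lay between 7.06 and 7.28. Nkg7 and Ifng were lower in both tumour-bearing groups (10.48 and 10.32, 4.42 and 4.82) than in both cancer-free ones (10.87 and 10.64, 5.42 and 5.65).

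Members did not vary as a block from array to array. Of 45 pairs 33 had a positive Pearson correlation over the 14 arrays, with a median r of 0.22 and a range of -0.68 to 0.79. Gzma and Gzmb were the pair with the highest value, r = 0.79 (permutation p = 0.00065, adjusted over 45 pairs 0.0292) and rho = 0.80 (permutation p = 0.00088, adjusted 0.0396). It was 0.84 without the 2 arrays farthest from the Gzma median and 0.68 after group means were removed. No other pair passed. Arrays were permuted across groups, so group differences that both genes share enter these p-values. No p was computed after group means were removed. Gzmb and Gzmm had r = -0.68 (permutation p = 0.00465, adjusted 0.105) and rho = -0.71 (permutation p = 0.00558, adjusted 0.0933), with r of -0.63 without the 2 arrays farthest from the Gzmb median and -0.61 after group means were removed. Gzma and Gzmk lie near each other on chromosome 13, and their r was 0.24 (permutation p = 0.414, adjusted 0.7) with a rho of 0.36 (permutation p = 0.202, adjusted 0.454). Without the 2 arrays farthest from the Gzma median this r was 0.83, and it was -0.026 after group means were removed. The genes share arrays and normalization, and no scan or extraction batch is given in the labels.

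**Figure D4:**
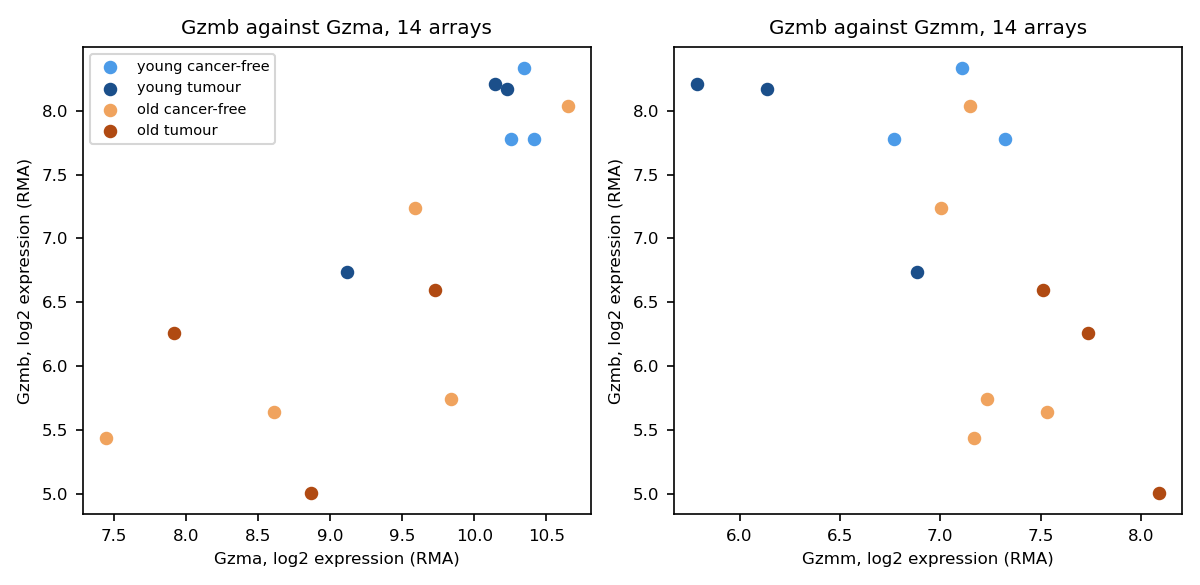
Gzmb (y axis) against Gzma and against Gzmm (x axes), in log2 expression, 1 point per array coloured by group. Over the 14 arrays Gzmb is high where Gzma is high (r = 0.79), and it tends to be low where Gzmm is high (r = -0.68), a relation that did not pass adjustment.

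Genes most like each member were ranked by Pearson correlation over the 14 arrays after group means were removed, as a description without a test. Gzma was followed by H2ac10, a histone gene (r = 0.97), Stard3 (0.93) and Cenpa, a centromere histone (0.91). Gzmb was followed by Chil3, a chitinase-like protein of myeloid cells (0.93), Mtfr2 (0.92) and Cmtm7 (0.90). The nearest to Prf1 were Sytl3, a synaptotagmin-like protein (0.96), Ccrl2 (0.93) and Nod1 (0.91). Those to Eomes were U2af1 (0.94), the natural killer receptor gene Klri1 (0.93) and Asap2 (0.91), and those to Fasl were Sla2, an adaptor of lymphocytes (0.92), Unc45a (0.91) and Bivm (0.90). Leading genes for the others were Patl1 for Gzmm (0.91), Apool for Nkg7 (0.92), B4galnt1 for Tbx21 (0.90), Vmp1 for Gzmk (0.87) and Dhrs7c for Ifng (0.86). All were picked as the highest of many genes, and some were weaker by other measures. With group means kept, r was -0.17 for Patl1 and Gzmm and 0.084 for Dhrs7c and Ifng, while it was 0.97 for H2ac10 and Gzma. The rho of Patl1 and Gzmm with group means removed was 0.67. No member was among the 3 nearest genes of another member. Members were also set against the mean of a marker list, by r with group means removed. For the natural killer cell markers, Eomes (0.69), Fasl (0.64), Tbx21 (0.49) and Prf1 (0.48) had the highest values. The granzymes Gzma (-0.12), Gzmm (-0.08), Gzmb (-0.03) and Gzmk (0.004) were nearer 0. Nkg7 was at 0.45 and Ifng at 0.024. With group means kept, Nkg7 was highest (0.75), and Gzmk was at 0.40, Gzmb at 0.19, Gzma at 0.18 and Gzmm at -0.14. Against the mean of the T cell markers, with group means removed, Gzmk (0.65), Prf1 (0.60), Tbx21 (0.54), Fasl (0.51) and Nkg7 (0.43) had the highest values. Gzmm was at -0.21 there, Gzma at -0.058, Gzmb at -0.028, Eomes at 0.092 and Ifng at 0.15. With group means kept, Fasl was highest (0.51), Gzmm was at 0.44 and Gzmb at -0.35.

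Of 6 further granzyme genes listed, 5 had a probe of their own (Gzmc, Gzmd, Gzmf, Gzmg and Gzmn), and all 5 stayed below the floor on all arrays, between 1.16 and 3.44. They are close copies in 1 cluster, and Gzme was not analysed here. A probe assigned to both Prf1 and the mitochondrial gene COX2 lay between 12.45 and 12.59 and was not used. Of the death ligands, receptors and caspases, 8 were tested. In old mice 5 of them were lower and 3 higher with a tumour, 1 at an unadjusted p under 0.05 in limma. Tnf, a cytokine of activated leukocytes, was at 6.59 to 8.03 in old cancer-free and 5.69 to 6.44 in old tumour-bearing mice, at -1.17 ± 0.32 (adjusted p = 0.295 in limma). Young cancer-free mice were at 5.83 to 6.69, and the old cancer-free mean was higher by 0.88 ± 0.32 (adjusted p = 0.586 in limma). In that age comparison 5 genes of the list were higher and 3 lower. For the tumour in old mice Il18rap, a chain of the IL18 receptor, differed by -1.003 ± 0.31 and Xcl1, a chemokine of natural killer cells, by -1.05 ± 0.29. Of the 8 tested genes in the list that holds Il18rap, 5 were lower and 3 higher there, 1 at an unadjusted p under 0.05 in limma. Cxcl9, an interferon gamma target, differed by -1.51 ± 0.59 between old and young cancer-free mice (adjusted p = 0.618 in limma). It lay at 4.39 to 6.36 in old and 6.18 to 8.78 in young mice, so the groups overlapped. Of the 11 target genes 7 were lower and 4 higher in that comparison, with a median of -0.07. Cxcl9 was the 1 gene among them at an unadjusted p under 0.05 in limma.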

How the data were processed

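RNA of sorted bone marrow cells from 14 mice was amplified, biotin-labelled and run on arrays of 1 colour, per the labels' protocols. The values used are the authors' deposited log2 values, made with RMA in oligo 1.32.0 and R 3.2.0 as the submitters' processing notes list; how arrays were batched for it is not stated. Of 41345 probes 23521 carried 1 gene symbol, 1814 several and 16010 none, and 23328 were matched to RefSeq by Entrez identifier. The brightest probe of a gene was used, for 22180 genes. Groups came from the sample titles. A limma fit (version 3.58.1, R 4.3.3) of 4 group means over 13805 genes gave 5 comparisons, each with two-sided Benjamini-Hochberg adjustment at 0.05, and was tested on simulated data. There a log2 change of 1 in 200 genes was recovered in 0% for the difference of tumour effects. It was recovered in 22% for age in tumour-bearing mice and in 33.5% to 44% for the other comparisons. A log2 change of 2 was recovered in 72.5% to 91%. The changed genes were drawn at random from all genes tested. Members had a larger median SD in each group, at 0.28 to 0.64 against 0.23 to 0.32 for all genes tested. Recovery at the spread of the members was not computed. Absence of a call therefore says little about differences near 1 and, for the more variable members, near 2. Correlations of member pairs used 100000 two-sided permutations of the 14 arrays, made across groups. Promoter windows came from RefSeq (GRCm38.p6).

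The members and gene lists were chosen with earlier results of these data known. All members were named. From the lists, genes with an unadjusted p under 0.05 could be named (up to 4 per list and comparison), and not all were. Ncr1, Klrb1c, Cd3e, Cd8a, Siglech and Mpo were named as defining markers, as were up to 3 genes most like each member. Ptprc, Kit, Ly6a and the further granzymes fall outside that rule. Alternatives were other filters on dim genes, cyclic loess, median centring, a variance trend, array weights, probe means, fits to the compared groups alone, replicate numbers as a block, and arrays left out.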

Additional observations from a re-analysis of the deposited data

How the results depend on the processing

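Each member had 1 probe of its own, so probe means could not change its values. Other filters on dim genes could change only the genes fitted beside it. Every alternative kept the count of members called at 0 of 10 in all 5 comparisons, except that without the 2 least correlated arrays 1 (Gzmm) was called for age in tumour-bearing mice. The share of all genes called without those arrays was not computed, so that count has no background to be read against. Leaving out single arrays moved the median member difference from -0.63 to -0.44 for tumour in young mice, -0.50 to -0.16 for tumour in old mice, -0.48 to -0.26 for age in cancer-free mice, -0.28 to -0.0025 for age in tumour-bearing mice and -0.10 to 0.25, across 0, for the difference of tumour effects. Without the 2 least correlated arrays the last was -0.049 and that for age in tumour-bearing mice -0.43. No member was called in the limma fit of all arrays, so any sign that turned was that of a difference not called. Under cyclic loess, Eomes turned to 0.079 for tumour in young mice and Nkg7 to -0.017 for the difference of tumour effects. For age in tumour-bearing mice Fasl turned to -0.049 under median centring and -0.17 with array weights, which also turned Gzma to -0.050 for the difference of tumour effects. The replicate block, in which old cancer-free replicates 4 and 5 have no counterpart and add nothing to the differences, took age in cancer-free mice to -0.31 for Gzma and -0.95 for Gzmb. With it, Fasl turned to -0.15 for age in cancer-free mice, and for the difference of tumour effects Fasl turned to 0.15, Gzma to -0.68 and Ifng to -0.068. The block changed no call; same-numbered arrays of different groups had correlations of their deviations between -0.08 and 0.09, so the numbers were not taken to pair the mice. Without the 2 least correlated arrays, tumour in young mice gave 0.034 for Fasl and 0.23 for Gzmb, tumour in old mice -0.20 for Prf1, age in tumour-bearing mice -0.47 for Fasl, -0.39 for Prf1 and -0.019 for Tbx21, and the difference of tumour effects -0.68 for Gzma. The cause was not tested. Leaving out single arrays turned the sign of these differences, with their ranges. It moved, for tumour in young mice, Eomes from -0.18 to 0.068, Fasl from -0.59 to 0.034 and Gzmb from -0.51 to 0.23. It moved, for tumour in old mice, Tbx21 from -0.20 to 0.036, Gzmb from -0.788 to 0.0079, Gzma from -0.83 to 0.072 and Prf1 from -0.20 to 0.58. It moved, for age in cancer-free mice, Fasl from -0.062 to 0.47 and Gzmm from -0.0014 to 0.277. It moved, for age in tumour-bearing mice, Ifng from -0.10 to 0.69, Fasl from -0.38 to 0.24 and Prf1 from -0.21 to 0.57. It moved, for the difference of tumour effects, Gzmb from -0.69 to 0.26, Gzmk from -0.48 to 0.36, Fasl from -0.58 to 0.065, Gzma from -0.33 to 0.58, Ifng from -0.34 to 0.45 and Nkg7 from -0.023 to 0.20. The number of arrays limits the precision of each difference.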
